A study of Bos taurus with 18 samples.

Results

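The genes described here are 10 genes of glycolysis and of the response to low oxygen, namely SLC2A1, HK2, ALDOA, TPI1, ENO1, PKM, LDHA, PDK1, HIF1A and VEGFA. They were taken by symbol from the deposited read counts, and all 10 were found among the 16989 gene symbols. The counts come from bovine mesenchymal stem cells (MSCs), the adherent marrow cells that can form cartilage, bone and fat. RNA with a poly-A tail was sequenced once from each of 17 clonal populations, A to Q, and once from a heterogeneous population. All 18 libraries share 1 donor, the marrow of a juvenile cow as the study's methods describe its source, and no genotype, drug or growth factor separates them. All were kept in monolayer on tissue culture plastic in DMEM with serum and antibiotics, at passage 1 for the clones by the study's methods, and no label gives an oxygen tension. Each clone descends from a single cell and has 1 library, so the values carry the differences between clones, between cultures and between preparations together, and these cannot be told apart.

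Glycolysis breaks glucose down to pyruvate and yields ATP without oxygen. Where oxygen is scarce, the transcription factor subunit HIF1A is spared from degradation and switches on glucose transporters, most glycolytic enzymes, PDK1 and VEGFA, so that pyruvate is turned to lactate instead of entering the mitochondria. HIF1A is controlled chiefly at the level of its protein, which RNA counts do not show. MSCs are known for a strongly glycolytic metabolism.

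Reads on genes numbered 11484812 to 18458157 per clone, with a median of 14193790, and 16092501 for the heterogeneous population. By library totals, before the scaling described next, 3 reads, the limit allowed by a count of 0, amount to 0.1625 to 0.2612 CPM. CPM gives the reads of a gene per 1000000 reads on genes and is scaled by TMM, a factor per library that keeps a few abundant genes from moving all others. Reads outside genes took 18.78% to 26.81% of each file, most in clone N. Clones C and O were the closest pair of libraries, with a chi-square per degree of freedom of 4.7 over 11406 genes against 21.4 for the next pair, E and F. That is above counting noise, but so would be separate cultures of the same clone, and whether C and O are 1 clone or 2 was not tested. They were counted as 2 clones after their labels, and the calls in the fits on LDHA and MKI67 are given without them too. The count of gene pairs and the calls on single listed genes in the fits on VEGFA and ACAN are not given without both. Of 9 mesenchymal markers all passed the filter on low counts, with sums of 48940 CPM (N) to 185900 CPM (M) in clones, while summed levels of 10 macrophage markers stayed between 1.392 and 6.251 CPM. Endothelial markers, ERG among them, summed to 17.49 to 75.79 CPM in clones. The endothelial genes CDH5 and ESAM, the macrophage genes ITGAM and CYBB and the erythroid genes HBA and HBB had 0 reads in all 18 libraries and so do not tell the libraries apart.

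Some genes of the pathway could not be followed. GAPDH, the glycolytic enzyme often used as a reference, had 1 to 12 reads per library, PGK1 had 0 in all, and the oxygen sensor EGLN1 had 0 in all, although every cell is known to use them, so that such rows cannot be read as levels. PGK2, a copy related to PGK1, had 138 to 489 reads. Reads from PGK1, and from LDHA and other genes with processed copies in the genome, may have been lost or moved between copies by the counting, and these values are uncertain to that extent. Levels were therefore compared between libraries, for 1 gene at a time, as sums over a list or as the ratio of a gene to a partner gene. Such a ratio carries the same uncertainty, and its size is not read as a difference in level between the genes.

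All 10 genes passed the filter on low counts and were expressed in every library. Their summed share of the reads on genes ran from 0.526% in clone K through a median of 0.8046% to 1.167% in clone O, and was 0.473% in the heterogeneous library. Between clones the standard deviation (SD) of log2(CPM + 0.25) was 0.31 to 0.82, with a median of 0.43, against 0.30 for the median of all 10342 genes past the same filter. All 10 lay above that median of all genes. Counting error alone would give an SD of 0.007 to 0.058, so depth was not what limited these values. How much of the spread belongs to the clones themselves cannot be told from 1 library each.

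SLC2A1, the glucose transporter GLUT1 through which glucose enters the cell, varied most. Its level was lowest in clone F at 30.93 CPM, had a median of 58.62 and was highest in clone O at 179.9 (SD 0.82 on the log2 scale, n = 17 clones), which placed it at the 92.0th percentile of spread among all genes. Clones C (172.5 CPM) and O stood at the top of the range and the heterogeneous library, at 32.34 CPM, near its bottom. HK2, the inducible hexokinase that traps glucose as glucose 6-phosphate, ran from 37.72 CPM in clone K through 59.98 to 104.3 in clone O (SD 0.44, n = 17), with C second at 97.61. HK1, the constitutive hexokinase, followed HK2 over the clones (r = 0.745, permutation p = 0.00068, rho = 0.647, and r = 0.495 without C and O). SLC2A3, a second glucose transporter, was low at 0.9979 to 10.75 CPM and showed no such relation to SLC2A1 (r = 0.151, permutation p = 0.56, rho = 0.0539, and r = 0.0848 without C and O).

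The enzymes of the middle of the pathway had narrower ranges. ALDOA, the aldolase that splits fructose 1,6-bisphosphate, had 705.5 CPM in clone K, a median of 1137 and 1485 in clone A (SD 0.33, n = 17). TPI1, which interconverts the resulting triose phosphates, had 352.4 CPM in K, a median of 673.0 and 1023 in O (SD 0.43). Clone K was the lowest of the 17 for both. ENO1, the enolase that makes phosphoenolpyruvate, ran from 1422 CPM in K through 1871 to 3001 in O (SD 0.32). PKM, the pyruvate kinase that yields pyruvate and ATP, ran from 2145 CPM in K through 3345 to 4630 in A (SD 0.31). The spreads of ENO1 and PKM were close to those of an ordinary gene, at the 55.1th and 52.8th percentile.

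LDHA, the lactate dehydrogenase subunit that favours lactate, had a wider range than these. It stood at 42.91 CPM in clone K, 57.84 in D, a median of 111.9, 171.3 in C and 192.6 in O (SD 0.56, n = 17), a 4.488-fold range at the 83.2th percentile of spread. LDHB, the subunit that favours pyruvate, was among the steadiest of the list with 144.3 to 213.7 CPM (SD 0.19, the 15.5th percentile). The 2 subunits showed no detectable relation over the clones (r = -0.108, permutation p = 0.683, rho = -0.184, and r = -0.328 without D and K). The log2 ratio of LDHA to LDHB reads went from -2.13 in K to 0.12 in O, a 4.75-fold range, and was -2.23 in the heterogeneous library. PDK1, the kinase that closes the pyruvate dehydrogenase gate, was lowest in clone L at 31.59 CPM, had a median of 41.94 and was highest in Q at 72.58 (SD 0.36). PDK3, another kinase of that gate, did not follow it (r = -0.31, permutation p = 0.225, rho = -0.483, and r = -0.444 without P and Q).

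The hypoxia genes ordered the clones differently. HIF1A had 356.3 CPM in clone L, a median of 528.0, 787.7 in E and 972.0 in Q (SD 0.43, n = 17), and clones C and O, at the top for LDHA, held only the 14th and 12th place. VEGFA, the secreted factor that draws in blood vessels, had 30.96 CPM in clone N, 43.77 in L, a median of 106.3 and 139.3 in D (SD 0.60). For VEGFA the spread was on the low side, since clones N and L stood apart below the rest while the upper clones lay close together. EPAS1, which encodes the related factor HIF2A, varied more than HIF1A, at 54.49 (N) to 515.1 CPM (D), and without a detectable relation to it (r = -0.121, permutation p = 0.642, rho = -0.0245, and r = 0.0296 without E and Q). ARNT, the partner that both factors bind, was steady at 38.04 to 58.45 CPM (SD 0.19).

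**Figure D1:**
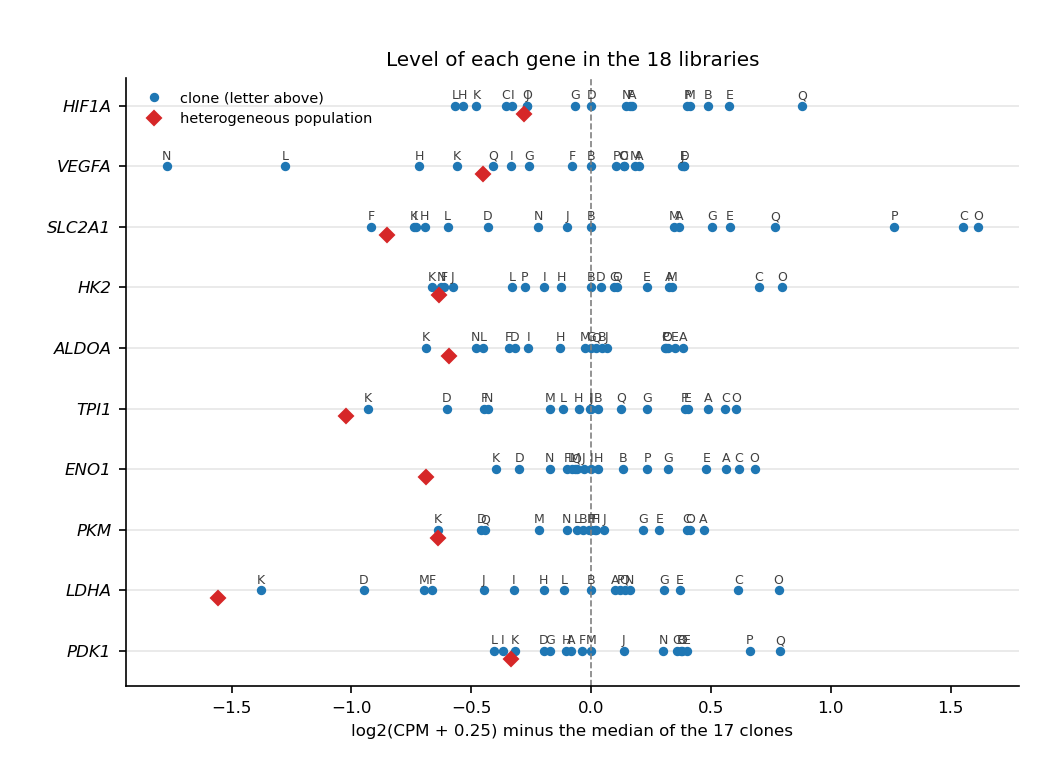
Level of each of the 10 genes in the 18 libraries, as log2(CPM + 0.25) minus the median of the 17 clones for that gene (circles with the clone's letter; red diamonds, the heterogeneous population). SLC2A1 has the widest range with C and O at its top, VEGFA is drawn out downwards by N and L, and the diamond lies left of the clones' median for every gene.

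Beyond these 10, the glycolysis genes past the filter with the widest spread were SLC16A3, SLC2A3, PFKFB3, ENO3 and PFKL. SLC16A3, the lactate exporter MCT4, ran from 1.322 CPM in clone F to 84.62 in O, a 63.98-fold range (SD 1.97), with 18 to 1414 reads. PFKFB3, which makes the activator of phosphofructokinase, ran from 22.85 (F) to 210.0 CPM (P), and PFKL, a phosphofructokinase, from 116.5 (K) to 505.2 CPM (O). ENO3, the muscle enolase, was highest in A at 202.9 CPM and lowest in O at 28.9. Among the widest past the filter in the hypoxia list were ADM, the vasodilator peptide adrenomedullin (9.992 in F to 327.6 CPM in N), ANGPTL4 (0.551 in L to 10.43 CPM in F), STC2 (2.51 in L to 74.53 CPM in D) and the mitophagy receptor BNIP3 (39.09 in F to 245.9 CPM in P). The highest clone differed among these 4, so that they did not share 1 order. Among the other isoenzymes, PFKM (19.18 to 40.45 CPM), PFKP (116.7 to 262.1), ALDOC (20.02 to 65.34) and PDK2 (11.25 to 29.81) passed the filter in clones, whereas ENO2 (1 to 10 reads) and PDK4 (0 to 12 reads) did not.

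Whether the 10 genes moved together was examined with all 45 pairs over the 17 clones. In 44 pairs Pearson's r was positive, the median r was 0.592, and in 28 pairs, all positive, the unadjusted permutation p was under 0.05. For comparison, 11% of the pairs of one of these genes with any other gene reached the r of the lowest of those 28. The share of such pairs with a positive r and their median r were not counted. The highest were ENO1 with TPI1 (r = 0.929, rho = 0.958, r = 0.912 without C and O), ALDOA with TPI1 (r = 0.918, rho = 0.904, r = 0.872 without K and N), ENO1 with PKM (r = 0.902, rho = 0.865, r = 0.874 without C and O) and LDHA with TPI1 (r = 0.872, rho = 0.821, r = 0.751 without D and K). Their permutation p was 1e-05, the smallest that the resamples can give, for the first 3 and 2e-05 for the last. Other pairs of these enzymes were looser, at r = 0.70 (rho = 0.591) for LDHA with ALDOA, r = 0.758 (rho = 0.613) for PKM with LDHA and r = 0.72 (rho = 0.738) for PKM with ALDOA. Clone K was the lowest of the 17 for ALDOA, TPI1, ENO1, PKM and LDHA, whereas clone A was first for ALDOA and PKM but 8th for LDHA, and clone N was 5th for LDHA but 16th for ALDOA. All 17 points share a donor, and CPM values share the scaling of their library. The permutations treat C and O as separate points, and the 28 pairs were not counted again without both.

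HIF1A was the gene least tied to the rest. Its r was -0.0972 with PKM (permutation p = 0.708), 0.0789 with ENO1 (permutation p = 0.762) and 0.15 with HK2 (permutation p = 0.563), which together with LDHA and VEGFA (r = 0.00822, permutation p = 0.975) were the 4 lowest pairs. Spearman's rho for these 4 was -0.0662, 0.103, 0.27 and 0.00245, and without the 2 clones farthest from the median r was -0.381 (A and K left out), 0.352 (C and O), 0.487 (C and O) and 0.0333 (D and K). PDK1 was the exception, with r = 0.674 to HIF1A (permutation p = 0.00329, rho = 0.669), and r = 0.499 without P and Q. SLC2A1 stood at r = 0.32 with HIF1A over all clones (permutation p = 0.209, rho = 0.387) and at 0.713 without C and O, so that this value rests on those clones.

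**Figure D2:**
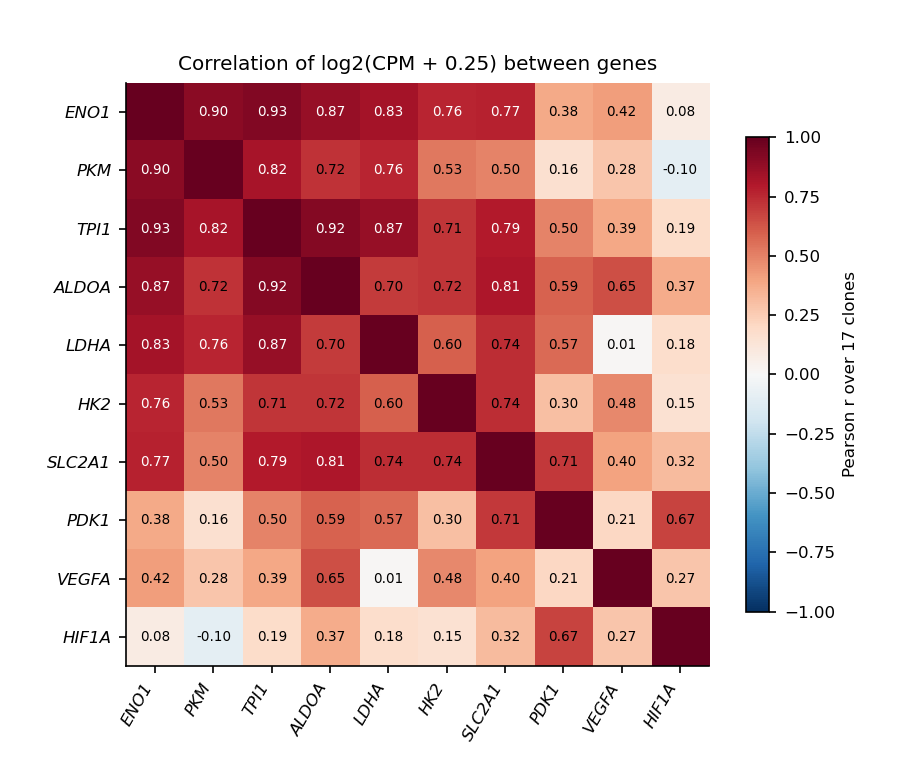
Pearson's r of log2(CPM + 0.25) between each pair of the 10 genes over 17 clones, on a scale from -1 (blue) to 1 (red). The block from ENO1 to LDHA is dark red, and the row of HIF1A is pale except for PDK1 (0.67).

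Over all genes past the filter, those with the largest r to LDHA were GPI (0.935), the isomerase of the second step, HK1 (0.879) and TPI1 (0.872), all glycolytic enzymes. For HIF1A they were P4HA1 (0.883), a collagen prolyl hydroxylase and known HIF target and TMEM154 (0.835, 16 to 90 reads), and for VEGFA LONP1 (0.939), KDM5C (0.903) and P4HA2 (0.881). These are the highest values among all genes past the filter over 17 clones and are given with no test.

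In the fit of every gene on the level of LDHA (edgeR's quasi-likelihood test over 17 clones, Benjamini-Hochberg adjustment over all 11338 genes), 4 of the other 9 genes rose with it, against 1.95% of all genes higher and 0.961% lower. Per unit of log2 LDHA, TPI1 rose by 0.67 on the log2 scale (SE 0.10, edgeR adjusted p = 0.0077), ENO1 by 0.48 (SE 0.09, adjusted p = 0.0205), SLC2A1 by 1.07 (SE 0.22, adjusted p = 0.0228) and PKM by 0.42 (SE 0.11, adjusted p = 0.0434). ALDOA (0.41, SE 0.11, adjusted p = 0.0525), HK2 (0.46, adjusted p = 0.0722) and PDK1 (0.38, adjusted p = 0.086) had slopes of like size that missed the threshold of 0.05, and 7 of the 9 had an unadjusted p under 0.05 against 26.4% of all genes. The slopes of HIF1A (0.17, SE 0.19, adjusted p = 0.61) and VEGFA (0.02, SE 0.23, adjusted p = 0.967) were within 1 standard error of 0.

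Among the other glycolysis genes, 6 of 29 tested rose with LDHA and 0 fell (15 at an unadjusted p under 0.05; median slope 0.21 against 0.001 over all genes). They were SLC16A3 (3.0, SE 0.53), PFKL (0.92), HK1 (0.82), GPI (0.76), PGAM1, the mutase before enolase (0.73), and PGK2 (0.40), whose reads may include some from PGK1. SLC16A3, which carries lactate out of the cell, had the steepest slope of these. Of 43 other hypoxia genes tested, 18 had an edgeR unadjusted p under 0.05, against 26.4% of all genes, and the median slope was 0.02. Among the 43, AK4 (0.90), the cytokine MIF (0.88) and the lymphatic growth factor VEGFC (0.64) rose and EPAS1 fell by 1.10 (SE 0.22, edgeR adjusted p = 0.0222). Of these 10 calls, only GPI and HK1 were kept without clone C, without clone O and with C and O summed, and only GPI without both. Without D and without K the calls were 5 in the glycolysis list, with 1 in the hypoxia list without D and 2 without K. Both lists were chosen with earlier results of these data known.

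These calls rest on few clones. Without clone O 0 of the 9 genes were called, without C or without D only TPI1, without K SLC2A1 and TPI1, with C and O summed into 1 sample only TPI1, and without both C and O 0. The slopes moved little when any 1 clone was left out, at 0.62 to 0.71 for TPI1, 0.46 to 0.52 for ENO1, 0.99 to 1.20 for SLC2A1 and 0.38 to 0.45 for PKM. At least 1 of C and O stayed in each of these fits. Without both, the slopes were 0.67 for TPI1, 0.42 for ENO1, 0.81 for SLC2A1 and 0.40 for PKM.

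**Figure D3:**
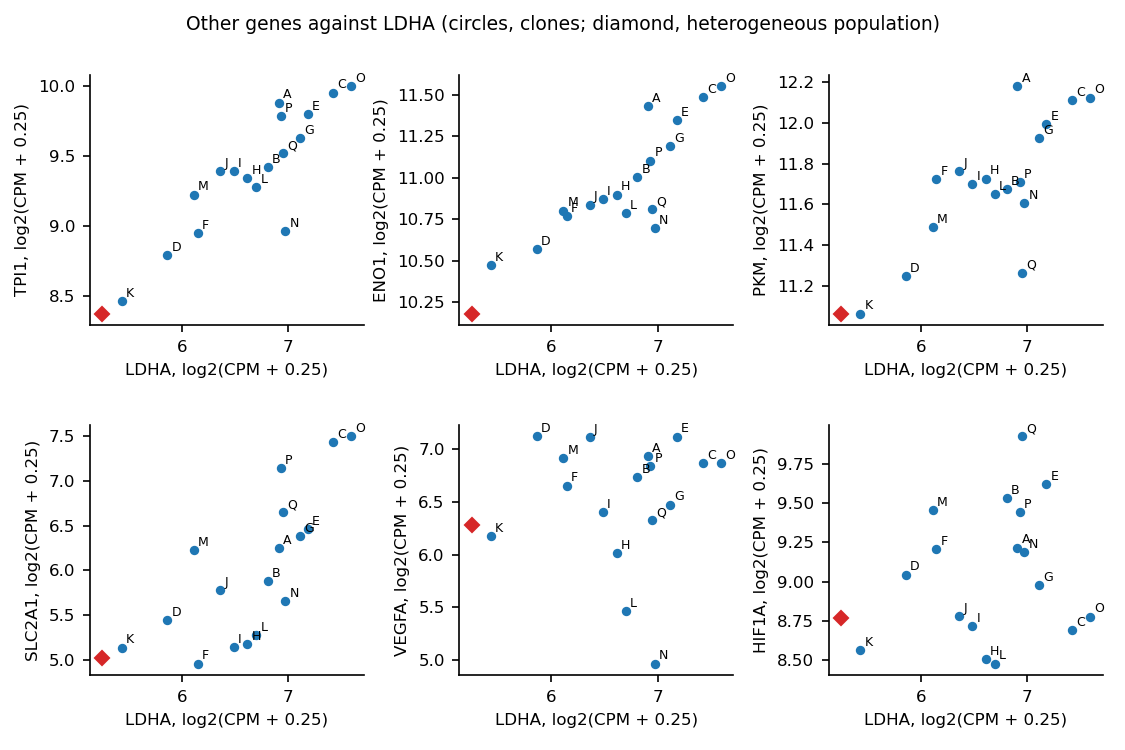
Level of TPI1, ENO1, PKM, SLC2A1, VEGFA and HIF1A against that of LDHA, all as log2(CPM + 0.25), with 1 letter per clone (circles) and the heterogeneous population (red diamond). TPI1, ENO1, PKM and SLC2A1 climb from clone K to clones C and O, and the slopes of VEGFA (0.02) and HIF1A (0.17) are within 1 standard error of 0.

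The fit on HIF1A called 0 of the other 9 genes, against 0.0267% of 11226 genes higher and 0 lower. PDK1 came closest (slope 0.56, SE 0.15, edgeR unadjusted p = 0.00171, adjusted p = 0.1), and was the only 1 of the 9 with an unadjusted p under 0.05, a share to be read against 20.4% of all genes. DESeq2 did call PDK1. The slope of VEGFA on HIF1A was 0.35 (SE 0.31, adjusted p = 0.535) and that of LDHA 0.13 (SE 0.30, adjusted p = 0.832). Of the 43 other hypoxia genes, P4HA1 rose with HIF1A (1.14, SE 0.16, edgeR adjusted p = 0.0108), and 14 had an unadjusted p under 0.05 against 20.4% of all genes. The slope was above 0 in 35 of the 43, with a median of 0.31 against 0.018 over all genes. How many of all genes had a slope above 0 was not counted. The slope of P4HA1 missed the threshold without L (1.07, adjusted p = 0.0554), without Q (1.21, adjusted p = 0.0527), with library totals (1.03, adjusted p = 0.0515) and with MKI67 as a covariate (0.84, adjusted p = 0.125). Of 29 other glycolysis genes, 0 were called (5 at an unadjusted p under 0.05) and the median slope was -0.07.

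MKI67, a marker of dividing cells that is not 1 of the 10, set the clones apart. Clones G, C, L and O had 510.6 to 588.5 CPM and the other 13 at most 195.6, with 21.66 in M. Against a background of 18.1% of 11226 genes higher and 18.8% lower, LDHA rose with MKI67 (slope 0.21, SE 0.08, edgeR adjusted p = 0.0399) and HIF1A fell (by 0.20, SE 0.06, adjusted p = 0.0149), and the other 8 passed in neither direction, with ENO1 at 0.11 (adjusted p = 0.0991) and PKM at 0.11 (adjusted p = 0.0914). HIF1A was 356.3 to 503.6 CPM in the 4 clones of high MKI67 and 364 to 972 (median 590.9) in the other 13, and LDHA was 103.5 to 192.6 against 42.91 to 144.8 (median 97.57), so that both ranges overlapped. Since the clones fall into these 2 clusters, r was also taken within the 13 only, a split on MKI67 itself that was made after its values were seen. Within the 13, r with MKI67 was -0.539 for HIF1A (permutation p = 0.0558, rho = -0.621 with permutation p = 0.0261, r = -0.408 without H and M). It was 0.232 for LDHA (permutation p = 0.444, rho = 0.143, r = 0.101 without H and M). The call on LDHA was lost without any 1 of clones C, D, F, G, J, M and O, and the call on HIF1A only without both C and O or under scaling by library totals. With MKI67 as a covariate 0 of the 9 genes passed in the fit on LDHA, although the slopes stayed at 0.69 for TPI1 (adjusted p = 0.057), 0.48 for ENO1 (adjusted p = 0.163), 1.2 for SLC2A1 (adjusted p = 0.175) and 0.39 for PKM (adjusted p = 0.368).

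Of the other glycolysis genes 8 of 29 rose with MKI67 and 3 fell, counts to be read against the 18.1% and 18.8% of all genes. Among those that rose were HK1 (0.24), PGAM1 (0.21), PFKL (0.25) and PFKP, and among those that fell were ALDOC and PDK2. Of 43 other hypoxia genes 3 rose, JMJD6 and MIF among them, and 12 fell, including P4HA1 (by 0.31, SE 0.06, edgeR adjusted p = 0.000722), EPAS1 (by 0.36, SE 0.12, adjusted p = 0.0232), ARNT, VHL and HIF1AN. EPAS1 and ARNT are HIF subunits, whereas VHL marks the oxygen-regulated subunits, such as HIF1A and EPAS1, for degradation and HIF1AN blocks their activity. Without both C and O, 4 glycolysis genes rose and 0 fell, and 0 hypoxia genes rose and 6 fell.

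**Figure D4:**
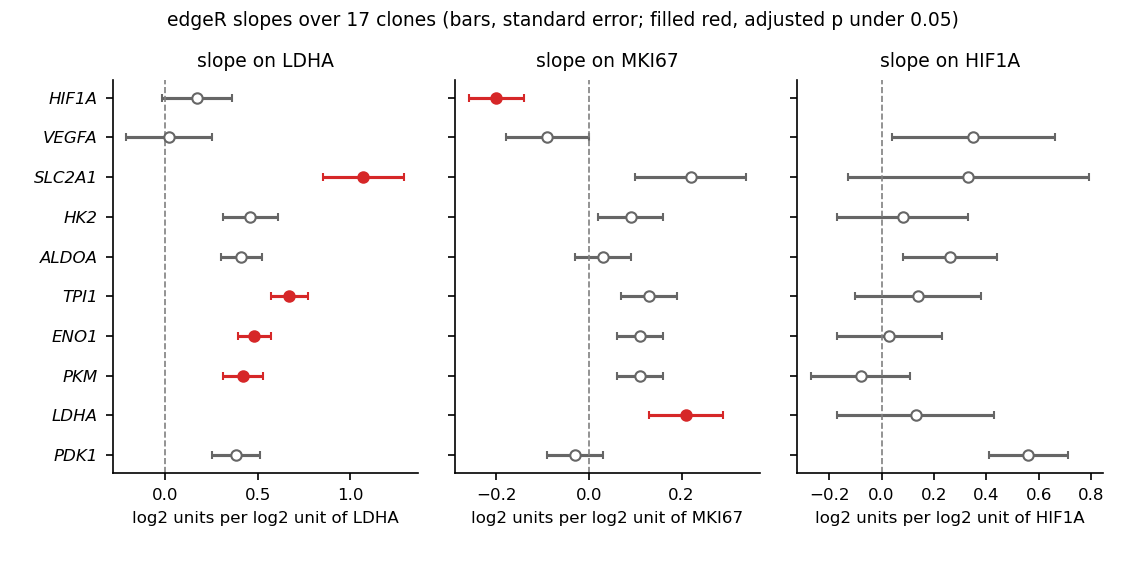
Slopes of the 10 genes on the log2 level of LDHA, MKI67 and HIF1A over 17 clones (edgeR; circles, slope; bars, standard error; filled red, adjusted p under 0.05). TPI1, ENO1, SLC2A1 and PKM pass on LDHA, LDHA (higher) and HIF1A (lower) pass on MKI67, and none of the 9 passes on HIF1A.

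VEGFA moved with the share of reads outside genes. Over the clones its level was lower where that share was higher (r = -0.922, permutation p = 1e-05, rho = -0.855, and r = -0.734 without L and N), and only 4 of all genes past the filter, itself included, lay as far on that side (0.0387%). For the other 9 genes r with this share was between -0.512 (ALDOA, permutation p = 0.0337, rho = -0.493, and r = -0.25 without L and N) and 0.198 (LDHA, permutation p = 0.447). In the fit on VEGFA 0 of the other 9 genes were called, against 2.13% of 11338 genes higher and 2.96% lower, and 2 had an unadjusted p under 0.05, ALDOA (slope 0.36, SE 0.11, adjusted p = 0.0659) and HK2 (0.39, SE 0.17, adjusted p = 0.165). Of 43 other hypoxia genes tested, NDRG1 (0.72), P4HA2 (0.76) and VLDLR (0.76) rose with VEGFA and 0 fell. Of 29 other glycolysis genes 0 rose, and PDK3 and PDP1 fell. These counts are to be read against the same 2.13% and 2.96% of all genes. Without clone N 0 of all genes were called, and with the share outside genes as a covariate 0 as well (1478 and 1228 at an unadjusted p under 0.05). What part the share had in the level of VEGFA was not tested.

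**Figure D5:**
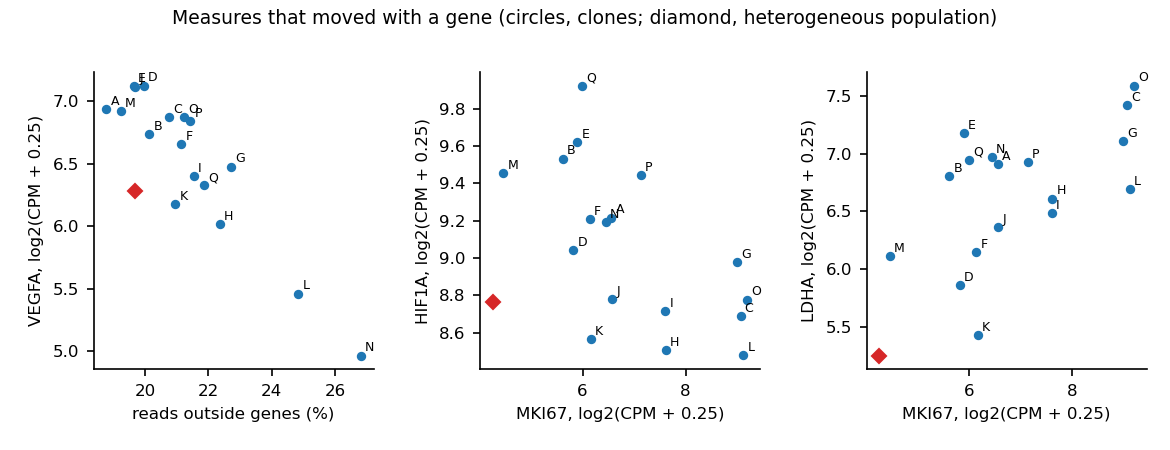
VEGFA against the percent of reads outside genes (left), HIF1A against MKI67 (middle) and LDHA against MKI67 (right), as log2(CPM + 0.25), with 1 letter per clone (circles) and the heterogeneous population (red diamond). VEGFA is lowest in N and L, which have the highest share outside genes, and the 4 clones C, G, L and O form a cluster of high MKI67.

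Aggrecan (ACAN), the cartilage proteoglycan the study is about, ranged over the clones from 18.38 CPM in H to 2699 in N. The fit on ACAN called 0 of the 10 genes, against 3.25% of 11226 genes higher and 2.11% lower, and SLC2A1 (slope 0.23, SE 0.07, edgeR adjusted p = 0.0787) and PDK1 (0.09, SE 0.03, adjusted p = 0.128) had an unadjusted p under 0.05. Without clone N, SLC2A1 passed. Of 29 other glycolysis genes tested, SLC16A3 (0.69, SE 0.15, edgeR adjusted p = 0.0142) and PFKFB3 rose with ACAN and the monocarboxylate transporter SLC16A7 fell. Of 43 other hypoxia genes CA9 rose and NRP1 fell. These counts are to be read against the same 3.25% and 2.11% of all genes. CA9 had 1 to 506 reads per clone and missed the filter on low counts used for the spread.

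In fits of each clone against the other 16, 0 of 170 tests on the 10 genes passed in edgeR, against 0.045% of all tests (90 calls, 86 of them in N), and 10 (5.88%) had an unadjusted p under 0.05 against 4.4% of all tests. Of these 10, 4 were lower values in clone K, namely LDHA (-1.41 on the log2 scale, SE 0.53), TPI1 (-1.05, SE 0.40), PKM (-0.71, SE 0.32) and ALDOA (-0.71, SE 0.33), all with an edgeR adjusted p of 0.999. VEGFA in clone N was the lowest of the 170 in p (-1.71, SE 0.50, 3.28-fold lower, unadjusted p = 0.00297, adjusted p = 0.111), and DESeq2 called it. HIF1A and PDK1 were 1.83-fold and 1.63-fold higher in clone Q (adjusted p = 0.758 for both). A single library stands for the clone in each fit and is assumed to vary like the other clones.

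The heterogeneous population, which was not grown from 1 cell, was lower than the clones for all 10 genes in the fitted difference, but 0 of the 10 passed the test, against 1.21% of 11878 genes higher and 0.00842% lower. The median log2 difference of the 10 was -0.68 against -0.035 over all genes. LDHA stood at 37.85 CPM against 42.91 to 192.6 in clones (log2 difference -1.55, SE 0.61, 2.92-fold lower, edgeR unadjusted p = 0.0207, adjusted p = 0.53). TPI1 stood at 331.4 CPM against 352.4 to 1023 (-1.10, SE 0.46, adjusted p = 0.578) and ENO1 at 1160 CPM against 1422 to 3001 (-0.85, SE 0.37, adjusted p = 0.598). These 3 were the only ones of the 10 with an unadjusted p under 0.05 (7.68% of all genes) and the only ones below every clone, which held for 8.87% of all genes past the filter, and 0 of the 10 were above every clone (8.67% of genes). HIF1A (435.1 CPM, log2 difference -0.38) and VEGFA (77.68 CPM, -0.36) were nearest to the clones. EPAS1 at 622.2 CPM was above every clone (1.77, SE 0.67, adjusted p = 0.486), and the log2 ratio of HIF1A to EPAS1 reads was -0.52 against 0.04 (D) to 3.73 (Q) in clones. Of the other listed genes, 0 of 34 glycolysis and 0 of 46 hypoxia genes passed (4 and 5 at an unadjusted p under 0.05).

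Marker levels of macrophages, of mesenchymal cells and of dividing cells differed beside these values. The summed level of 10 macrophage markers was 149.1 CPM in the heterogeneous library against at most 6.251 in a clone, with ITGAM and CYBB at 0 there too, and that of 8 cycling genes was 43.21 CPM, below every clone (55.13 in M, median 198.9, 1212 in O). The 9 mesenchymal markers summed to 190100 CPM, above every clone (48940 in N to 185900 in M), of which COL1A1 made 114600 CPM. Endothelial markers summed to 26.98 CPM (17.49 to 75.79 in clones) and erythroid markers to 10.47 CPM (2.204 to 11.83). In bulk RNA fewer cells of a type and less RNA per cell cannot be told apart. The part of other cells, of mesenchymal RNA or of division in the lower values of the 10 genes was not tested.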

How the data were processed

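The authors aligned short single-end reads of poly-A RNA to the bosTau7 cattle genome with STAR (2.3.0e in the submitters' processing notes) and counted them per RefSeq gene with HTSeq. The deposited values are these raw counts per gene symbol, whole numbers without normalization. The lines of reads outside genes (18.78% to 26.81%) and the other tally lines stayed out of library sizes. The tally of reads with several alignments was 0 in every file, and how such reads were handled is not given in the sources used here. The library kit does not mark strand, so overlapping antisense transcripts are counted together.

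Counts were scaled by TMM and tested with edgeR 4.0.16 (filterByExpr, glmQLFit, glmQLFTest, R 4.3.3), with Benjamini-Hochberg adjustment over all genes of a fit and a threshold of 0.05. The fits were the heterogeneous library against 17 clones, each clone against the other 16, and slopes on the log2 CPM (pseudocount 0.25) of HIF1A, LDHA, VEGFA, MKI67 and ACAN over clones. A slope is the change in log2 level per log2 unit. Correlations used 100000 two-sided permutations, unadjusted, in Python 3.11.15 with scipy 1.17.1. The fits were also tested on simulated counts. The biological coefficient of variation was 32.1%. Intervals and floors cover counting error only, and replicates are clones of 1 donor.

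Genes named are the 10 members, GAPDH and PGK1, isoenzyme partners, the 5 widest-spread genes of each list, genes called with the members, the 3 genes with the largest r for HIF1A, LDHA and VEGFA, and the 4 largest and 4 smallest pairs. EGLN1, ITGAM and similar single genes, PDK1 with HIF1A and SLC2A1 with HIF1A were named after their values were seen. The members and the gene lists were chosen with earlier results of these data known. Of the 16989 symbols, 15471 match the RefSeq table of ARS-UCD2.0, another build, so no coordinates are printed, and gene lengths and sequences were not used here. A few genes that this rule would name are not reported here. The series table, which holds the same counts, was not used.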

Additional observations from a re-analysis of the deposited data

How the results depend on the processing

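No paired analysis was possible because each clone has 1 library and the 2 groups share no replicate numbers in the labels. The 0 of 10 genes called in the heterogeneous library held under DESeq2 size factors, library totals, no filter, the DESeq2 Wald test and without each clone, while the genes called, 145, were 89 with DESeq2. With library totals the genes called on LDHA came to 7 of 9 (1912 genes against 330), on MKI67 to 4 of 10 and on ACAN to 2 of 10, and on VEGFA to 1172 genes against 577. With library totals the higher and lower calls were 1462 and 450 on LDHA (221 and 109 with TMM), 75 and 1097 on VEGFA (241 and 336), 3343 and 902 on MKI67 (2034 and 2106) and 517 and 168 on ACAN (365 and 237), and the median slope of all genes on VEGFA moved from -0.006 to -0.124. With DESeq2 the genes called were 1 on HIF1A (637 genes against 3), 7 on LDHA (1247 genes), 1 on VEGFA (1236 genes), 1 on ACAN (1042 genes against 602) and 1 in single clones (464 genes against 90), and its higher and lower calls on HIF1A were 243 and 394, on VEGFA 711 and 525 and on ACAN 516 and 526. With no filter 13 genes were called on HIF1A.

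The following were chosen after seeing the data. With C and O summed, 1 of the 9 genes was called on LDHA (4 genes in all), 1 of the 10 on MKI67 (3297 of 11208 genes in all), and 1 gene in all on HIF1A. Without both, 0 were called on LDHA (2 genes in all) and 0 on MKI67 (2227 genes in all against 4140), and 1004 genes on VEGFA. With the share outside genes as a covariate, 6 of the 10 genes were called on MKI67 (4729 of 11505 genes in all) and 1 on ACAN (246 genes in all). In the same setting 0 genes in all were called on VEGFA and 13 in all on HIF1A. With MKI67 as a covariate, 0 were called on LDHA (5 in all), 1 on VEGFA (1673 in all) and 1 in all on HIF1A.

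Leaving out each clone in turn gave 0 to 6 of the 9 on LDHA (2 to 1518 genes), 0 to 0 on HIF1A (0 to 754 genes, the most without K), 0 to 1 on VEGFA (0 to 837 genes), 1 to 3 on MKI67 (3168 to 4423), 0 to 1 on ACAN (257 to 1167), and 137 to 155 genes in the heterogeneous library. Each-clone fits without N or O kept 0 calls on the 10 genes, with 5 and 60 genes called in all, and 24 to 26 pairs then had a permutation p under 0.05. The slope of VEGFA on LDHA, near 0, turned to -0.01 with library totals, -0.02 with C and O summed and -0.10 without both, and was -0.10 to 0.14 without single clones. The slope of VLDLR on VEGFA turned to -0.07 with the share outside genes as a covariate. With library totals r became -0.0525 for ENO1 with HIF1A and -0.0524 for LDHA with VEGFA, and without N or O the latter was -0.0584 to 0.132. The cause of these changes was not tested. Of all other single values under their alternatives, 1071 kept direction and side of the threshold, 128 kept direction but missed it and 30 passed it. Depth was not the limit for the 10 genes, each with at least 409 reads per library, whereas genes with few reads, such as ENO2 and PDK4, are poorly measured.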
